A study of Homo sapiens with 10 samples.

Results

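The HOX cluster genes encode homeodomain transcription factors and lie in 4 groups of neighbouring genes, HOXA on chromosome 7, HOXB on chromosome 17, HOXC on chromosome 12 and HOXD on chromosome 2. They were chosen by symbol, as the protein-coding genes of GENCODE release 44 on GRCh37 whose symbol is HOX followed by A, B, C or D and a paralogue number, which gave 39 genes of the 20098 that code for protein on chromosome X and the autosomes. HOX proteins set regional identity along the body axis, and the order of the genes in a cluster follows the order of the body regions in which they act. Genes with the same number in different clusters are paralogues. Polycomb proteins are known to hold HOX genes silent and Trithorax proteins to keep them active, and a cluster can carry long stretches of both kinds of chromatin.

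The data were 2 peak lists from chromatin immunoprecipitation followed by sequencing (ChIP-seq) in HEK293, an established human embryonic kidney cell line, and they were searched for where ZMYND8, a protein that reads histone acetylation and methylation, lay over the HOX genes. The series has 10 samples, 2 inputs and 2 replicates for each of the ChIP targets H3K14ac, H3K27ac, ZMYND8 and FLAG-ZMYND8, and only the last pair of targets was analysed here. All samples came from Flp-In T-REx HEK293 cells with a stable 3xFLAG-ZMYND8 transgene, crosslinked with formaldehyde and digested with micrococcal nuclease. The FLAG-ZMYND8 ChIP was made with anti-FLAG after 10 nM doxycycline had induced overexpression of the tagged protein. The ZMYND8 ChIP was made with an antibody to the protein itself, and the labels say that its cells carried either the full-length tagged protein or its N228F mutant, without naming which, and give no doxycycline. The 2 lists therefore differ in antibody and possibly in induction and in the transgene, and these cannot be told apart.

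Each list holds positions only, 15086 peaks for ZMYND8 and 63690 for FLAG-ZMYND8, with no read counts and no replicate names. The depth is therefore unknown, no spread between replicates can be given, and all values below are counts and widths without a test. The 95% Wilson intervals cover counting error only. A peak was placed at a gene when its midpoint lay within 3 kb of the gene start, the outermost annotated 5′ end, or within 1 kb for the narrower window. A distance is positive downstream of the start, in the direction of transcription. Both lists have a minimum width, 151 bp for ZMYND8 and 167 bp for FLAG-ZMYND8.

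To show the kind of DNA that both lists had in common, 1 stretch from each cluster is printed below, the one nearest to a HOX gene start among the stretches under peaks of both lists that lay free of untranslated and non-coding exon sequence. Bases are from the GRCh37 plus strand, 5′ to 3′, with each CG dinucleotide in capitals. The HOXA4 stretch (chr7:27170661-27170960) was centred 411 bp upstream of the HOXA4 start and outside annotated exons. The HOXB6 stretch (chr17:46682639-46682938) was centred 434 bp upstream of HOXB6, also outside exons. The HOXC4 stretch (chr12:54411924-54412223) was centred 1358 bp downstream of the HOXC4 start and outside exons, and the HOXD1 stretch (chr2:177053946-177054114) was centred 634 bp downstream of the HOXD1 start in coding sequence of that gene.
HOXA4: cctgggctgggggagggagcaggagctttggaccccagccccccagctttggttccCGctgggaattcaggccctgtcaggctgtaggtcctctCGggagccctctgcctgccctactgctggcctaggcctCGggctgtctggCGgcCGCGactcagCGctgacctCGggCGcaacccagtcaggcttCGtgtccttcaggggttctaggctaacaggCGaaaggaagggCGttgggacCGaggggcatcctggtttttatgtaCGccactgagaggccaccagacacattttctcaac
HOXB6: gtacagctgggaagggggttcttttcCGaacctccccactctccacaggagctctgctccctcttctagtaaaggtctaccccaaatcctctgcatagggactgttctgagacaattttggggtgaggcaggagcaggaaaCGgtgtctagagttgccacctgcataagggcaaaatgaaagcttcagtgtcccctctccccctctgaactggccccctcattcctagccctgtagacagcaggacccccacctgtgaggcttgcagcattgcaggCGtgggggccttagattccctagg
HOXC4: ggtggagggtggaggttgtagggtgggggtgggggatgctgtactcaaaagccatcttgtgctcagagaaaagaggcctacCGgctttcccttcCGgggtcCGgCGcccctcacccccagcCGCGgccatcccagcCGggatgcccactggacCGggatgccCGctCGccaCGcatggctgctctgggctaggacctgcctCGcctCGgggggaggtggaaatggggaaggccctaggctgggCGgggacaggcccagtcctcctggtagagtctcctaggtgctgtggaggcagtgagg
HOXD1: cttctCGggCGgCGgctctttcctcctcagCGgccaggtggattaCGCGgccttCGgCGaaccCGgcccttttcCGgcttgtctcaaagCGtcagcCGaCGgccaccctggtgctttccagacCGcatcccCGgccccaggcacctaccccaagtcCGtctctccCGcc

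The 4 stretches were not alike in CG content. The HOXB6 stretch held 3 CG dinucleotides in 300 bp, the HOXA4 and HOXC4 stretches 14 each, and the HOXD1 stretch 17 in 169 bp. The ratio of CG observed to CG expected from base content was 0.13 for HOXB6, 0.46 for HOXA4, 0.42 for HOXC4 and 0.93 for HOXD1. A CG-poor and a CG-dense stretch could thus both lie under peaks of both lists.

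The other sequence shown is the 200 bp directly upstream of HOXD4 (chr2:177016078-177016277), a HOX gene with no peak of either list within 3 kb, from the same strand and build.
HOXD4: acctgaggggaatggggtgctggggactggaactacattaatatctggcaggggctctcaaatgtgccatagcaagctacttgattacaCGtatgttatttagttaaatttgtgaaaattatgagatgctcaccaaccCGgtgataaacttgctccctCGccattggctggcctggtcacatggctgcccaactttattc

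The HOXD4 sequence held 3 CG dinucleotides at 46.5% GC. The HOXB6 stretch above, which lay under both lists, held as many in 300 bp.

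ZMYND8 peaks lay at the starts of more than 50% of the HOX genes, and FLAG-ZMYND8 peaks at nearly all. Within 3 kb, 23 of 39 HOX genes had a ZMYND8 peak (59.0%, Wilson interval 43.4 to 72.9%), against 34.1% of all protein-coding genes. For FLAG-ZMYND8 the number was 37 of 39 (94.9%, 83.1 to 98.6%), against 58.1% of all protein-coding genes. Each of the 23 genes with a ZMYND8 peak also had a FLAG-ZMYND8 peak, so that 23 had peaks of both lists, against 29.4% of all protein-coding genes. The remaining HOX genes with a peak were 14 with FLAG-ZMYND8 alone, and 0 had ZMYND8 alone. Most ZMYND8 genes elsewhere had both as well. Of all 20098 protein-coding genes, 6856 had a ZMYND8 peak, 11670 a FLAG-ZMYND8 peak and 5905 both.

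The narrower window kept the order of the lists. Within 1 kb, 14 HOX genes had a ZMYND8 peak (35.9%, Wilson interval 22.7 to 51.6%), close to the 28.5% of all protein-coding genes. FLAG-ZMYND8 peaks lay within 1 kb of 34 HOX genes (87.2%), against 49.3% of all protein-coding genes, and 14 HOX genes had both, against 22.7%. The first transcribed base itself lay under a ZMYND8 peak at 7 HOX genes (17.9%), where 8.81% of all protein-coding genes had one, and under a FLAG-ZMYND8 peak at 13 (33.3%), where the share of all genes was 12.6%.

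HOX genes are close neighbours, so these counts are not independent of each other. The Wilson intervals treat the genes as independent and do not allow for this. Another HOX start lay within 6 kb of 14 of the 39 genes, so that their windows overlapped. The 39 windows held 29 different ZMYND8 peaks, of which 5 were counted at more than 1 HOX gene, and 135 different FLAG-ZMYND8 peaks, of which 19 were. HOXB3 and HOXB6 start 80 bp apart and shared nearly all of their peaks.

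The amount of DNA under peaks differed from other genes as well. In the 6001 bp around a start, the median HOX gene had 235 bp under ZMYND8 peaks and the median protein-coding gene 0 bp, with means of 640 and 152 bp. For FLAG-ZMYND8 the median was 1564 bp at HOX genes and 167 bp over all protein-coding genes, with means of 1962 and 377 bp. The highest HOX values were 2923 bp for ZMYND8, at HOXC5, and 4803 bp for FLAG-ZMYND8, at HOXB5, where no ZMYND8 peak lay within 3 kb.

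**Figure D1:**
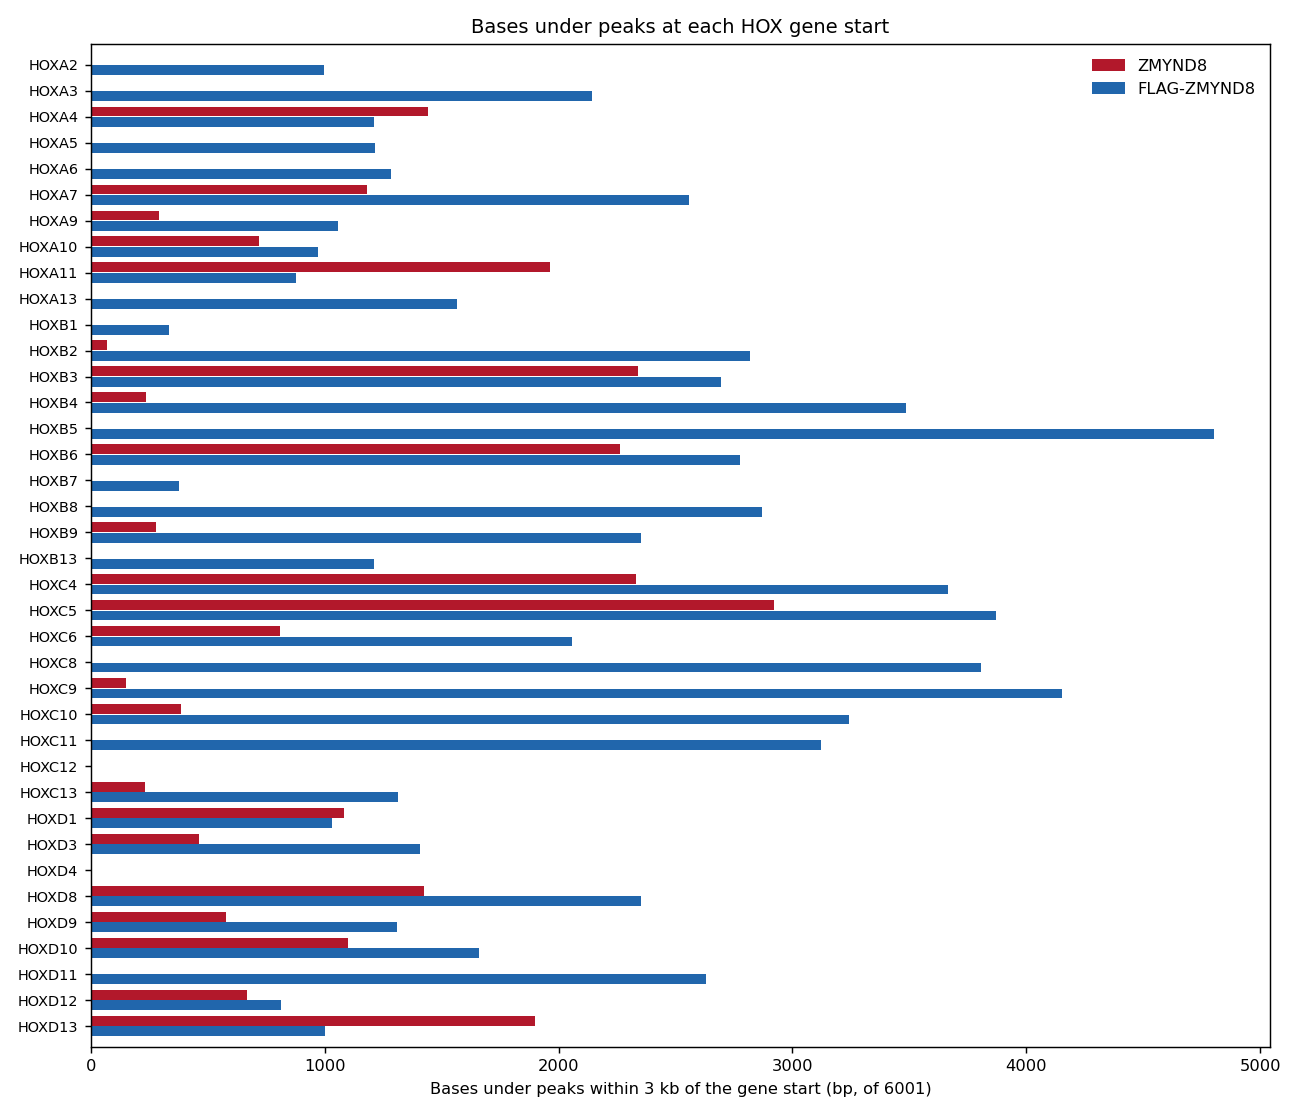
Bases under ZMYND8 (red) and FLAG-ZMYND8 (blue) peaks within 3 kb of the start of each HOX gene shown, in bp of 6001, from 1 peak list each and so without error bars. FLAG-ZMYND8 bars reach 4803 bp at HOXB5, HOXC12 and HOXD4 have none, and the red bar is the longer one at HOXA4, HOXA11, HOXD1 and HOXD13.

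FLAG-ZMYND8 peaks covered more bases than ZMYND8 peaks at most HOX starts, and 4 genes stood the other way. HOXA4 had 1441 bp under ZMYND8 and 1210 bp under FLAG-ZMYND8 peaks. HOXA11, which takes part in limb and kidney patterning, had 1964 and 877 bp. HOXD13, which patterns the digits, had 1901 and 1001 bp, and HOXD1 had 1080 and 1029 bp. At HOXD1 the difference was small beside the widths of single peaks.

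The genes are described next by their paralogue number, from the anterior genes, numbered 1 to 3, which act in the hindbrain, over the central genes, 4 to 8, to the posterior genes, 9 to 13, which act in the trunk, limbs and urogenital tract. Among the 8 anterior genes, 4 had a ZMYND8 peak within 3 kb and all 8 a FLAG-ZMYND8 peak. Among the 15 central genes the numbers were 8 and 14, and among the 16 posterior genes 11 and 15. The median number of bases under FLAG-ZMYND8 peaks was highest in the central group, at 2556 bp, with 1446 bp in the anterior and 1310.5 bp in the posterior group, and within each group single genes ranged widely, from 0 to 4803 bp in the central group.

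**Figure D2:**
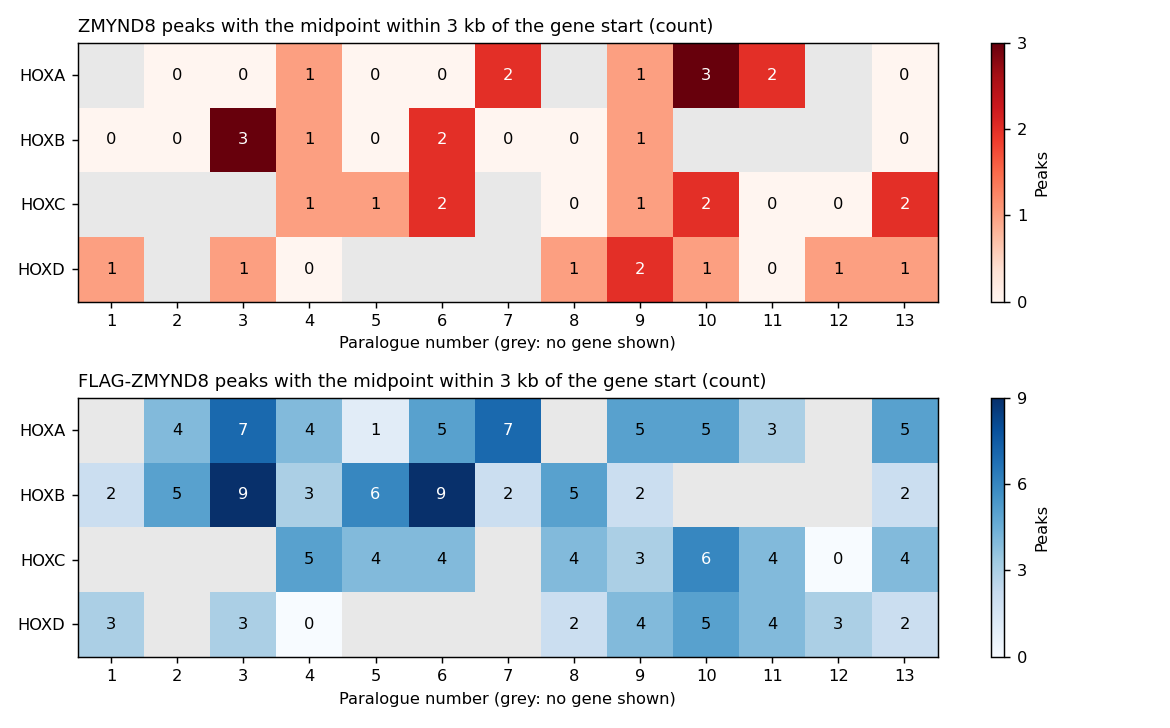
Number of ZMYND8 (upper grid) and FLAG-ZMYND8 (lower grid) peaks with the midpoint within 3 kb of each HOX gene start shown, by cluster (rows) and paralogue number (columns), with grey where no gene is shown. ZMYND8 counts go up to 3, at HOXA10 and HOXB3, all genes numbered 9 and 10 have at least 1, and no gene numbered 2 has any. FLAG-ZMYND8 counts go up to 9 and are 0 at HOXC12 and HOXD4.

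Of the anterior genes with a ZMYND8 peak, HOXD3 and HOXD1 had it over the start. A 462 bp peak was centred 154 bp downstream of HOXD3, and a 1080 bp peak 178 bp downstream of HOXD1. HOXB3 had 3 ZMYND8 peaks, of 1534, 260 and 1083 bp, which were centred 1061 bp upstream and 846 and 2995 bp downstream. The outermost HOXB3 start belongs to a long transcript and lies beside HOXB6, so these peaks were near HOXB6 as well.

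Neither HOXA2 nor HOXB2, the hindbrain genes numbered 2, had a ZMYND8 midpoint within 3 kb. The nearest one was 4124 bp upstream of HOXA2 and 3868 bp downstream of HOXB2, where the edge of a 1868 bp peak still reached 67 bp into the window. Both genes had FLAG-ZMYND8 peaks, 4 at HOXA2 and 5 at HOXB2. HOXA3 had 7 FLAG-ZMYND8 peaks and no ZMYND8 peak, with the nearest ZMYND8 midpoint 3927 bp upstream, and HOXB1 had 2 FLAG-ZMYND8 peaks of the minimum width only, which covered 334 bp, the least of any HOX gene with a FLAG-ZMYND8 peak.

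In the central group, ZMYND8 peaks lay within 3 kb of 3 of the 4 genes numbered 4, HOXA4, HOXB4 and HOXC4, and within 1 kb of HOXA4 alone. The 1441 bp peak at HOXA4 was centred 122 bp downstream and lay over its start. At HOXC4 a 2450 bp peak was centred 1894 bp downstream, and at HOXB4 a 235 bp peak lay 2404 bp upstream. HOXD4, the remaining gene with this number, had neither kind of peak within 3 kb, and the nearest were a ZMYND8 midpoint 14784 bp and a FLAG-ZMYND8 midpoint 3208 bp upstream.

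HOXC5 had the widest ZMYND8 peak of any HOX gene, 4433 bp, centred 2294 bp downstream of its start. HOXC6 had a 659 bp peak 269 bp downstream and over the start, and a minimum-width peak 1630 bp downstream. HOXB6 had peaks of 1534 bp, centred 981 bp upstream, and of 260 bp, centred 926 bp downstream. At HOXA7, peaks of 188 bp and 991 bp lay 891 bp upstream and 1426 bp downstream. HOXD8 had a 1424 bp peak over its start, centred 301 bp downstream. The central genes without a ZMYND8 peak included HOXB5, HOXB8 and HOXC8, which were nevertheless among the genes with the most bases under FLAG-ZMYND8 peaks, 4803, 2871 and 3806 bp.

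Counted from their outermost starts, the posterior genes numbered 9 and 10 had ZMYND8 peaks in every cluster that has them. HOXD9 had peaks of 227 bp and 351 bp, centred 724 and 2430 bp downstream. HOXA9 had a 291 bp peak 2223 bp upstream, HOXB9 a 279 bp peak 1426 bp downstream and HOXC9 a minimum-width peak 2641 bp upstream. None of these 3 genes had one within 1 kb. The HOXA9 peak was also counted at HOXA10, and the HOXC9 peak at HOXC6. HOXA10, a regulator of uterine and blood cell development, had 3 peaks of 291, 278 and 151 bp, the nearest centred 569 bp upstream. HOXC10 had peaks of 234 and 151 bp, both upstream, and HOXD10 had a 1100 bp peak centred 931 bp downstream.

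The most distal posterior genes were less even. At HOXA11 a 1813 bp peak was centred 14 bp upstream, the ZMYND8 midpoint closest to any HOX start, and a minimum-width peak lay 2046 bp downstream. HOXD13 had a 1901 bp peak centred 258 bp downstream, HOXD12 a 666 bp peak 2107 bp upstream, and HOXC13, which is needed for hair, had minimum-width peaks 620 bp downstream and 2998 bp upstream. HOXC11, HOXD11, HOXC12, HOXA13 and HOXB13 had none within 3 kb. HOXB13, a gene of the prostate and hindgut that stands apart from the rest of its cluster, had its nearest ZMYND8 midpoint 40186 bp downstream, the largest distance at any HOX gene.

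Several HOX genes have a long transcript whose start lies far from the start of the canonical transcript, the one that Ensembl marks as representative. The distance was over 3 kb for 10 genes, HOXA9, HOXA10, HOXB3, HOXB7, HOXC4, HOXC6, HOXC9, HOXD3, HOXD10 and HOXD11. It was largest at HOXC6 (37816 bp) and HOXC4 (36904 bp), followed by HOXB7 (22555 bp) and HOXD3 (20695 bp). The HOXC4 stretch and the peaks given above for HOXC4 and HOXC6 were thus far from the canonical starts of these genes. HOXC6 had no ZMYND8 midpoint within 1 kb of its canonical start, and HOXA10, HOXB3 and HOXD3 also lost theirs in this window. HOXC4 and HOXC9 gained 1 each, which at HOXC9 was a 702 bp peak. With canonical starts, which were added once the values had been seen, 21 HOX genes had a ZMYND8 peak within 3 kb, against 35.6% of all protein-coding genes with such a transcript, and 37 had a FLAG-ZMYND8 peak, against 60.3%. HOXA9, HOXB3 and HOXD3 lost their ZMYND8 peak in this placement and HOXD11 gained one, so that no gene numbered 3 had one.

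Across whole clusters, taken from the outer end of the first HOX gene to that of the last, both lists were dense. The HOXA span (chr7:27132612-27239710) held 14 ZMYND8 peaks, or 13.1 per 100 kb, and 61 FLAG-ZMYND8 peaks, or 57.0 per 100 kb. The HOXB span (chr17:46605888-46806112) held 11 and 85 peaks, or 5.49 and 42.5 per 100 kb. The HOXC span (chr12:54332615-54449814) held 14 and 71 peaks, or 11.9 and 60.6 per 100 kb. The HOXD span (chr2:176957449-177055635) held 10 and 43 peaks, or 10.2 and 43.8 per 100 kb. HOXB had the fewest peaks per 100 kb in both lists, and it is also the longest span, since HOXB13 lies far from the other HOXB genes.

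**Figure D3:**
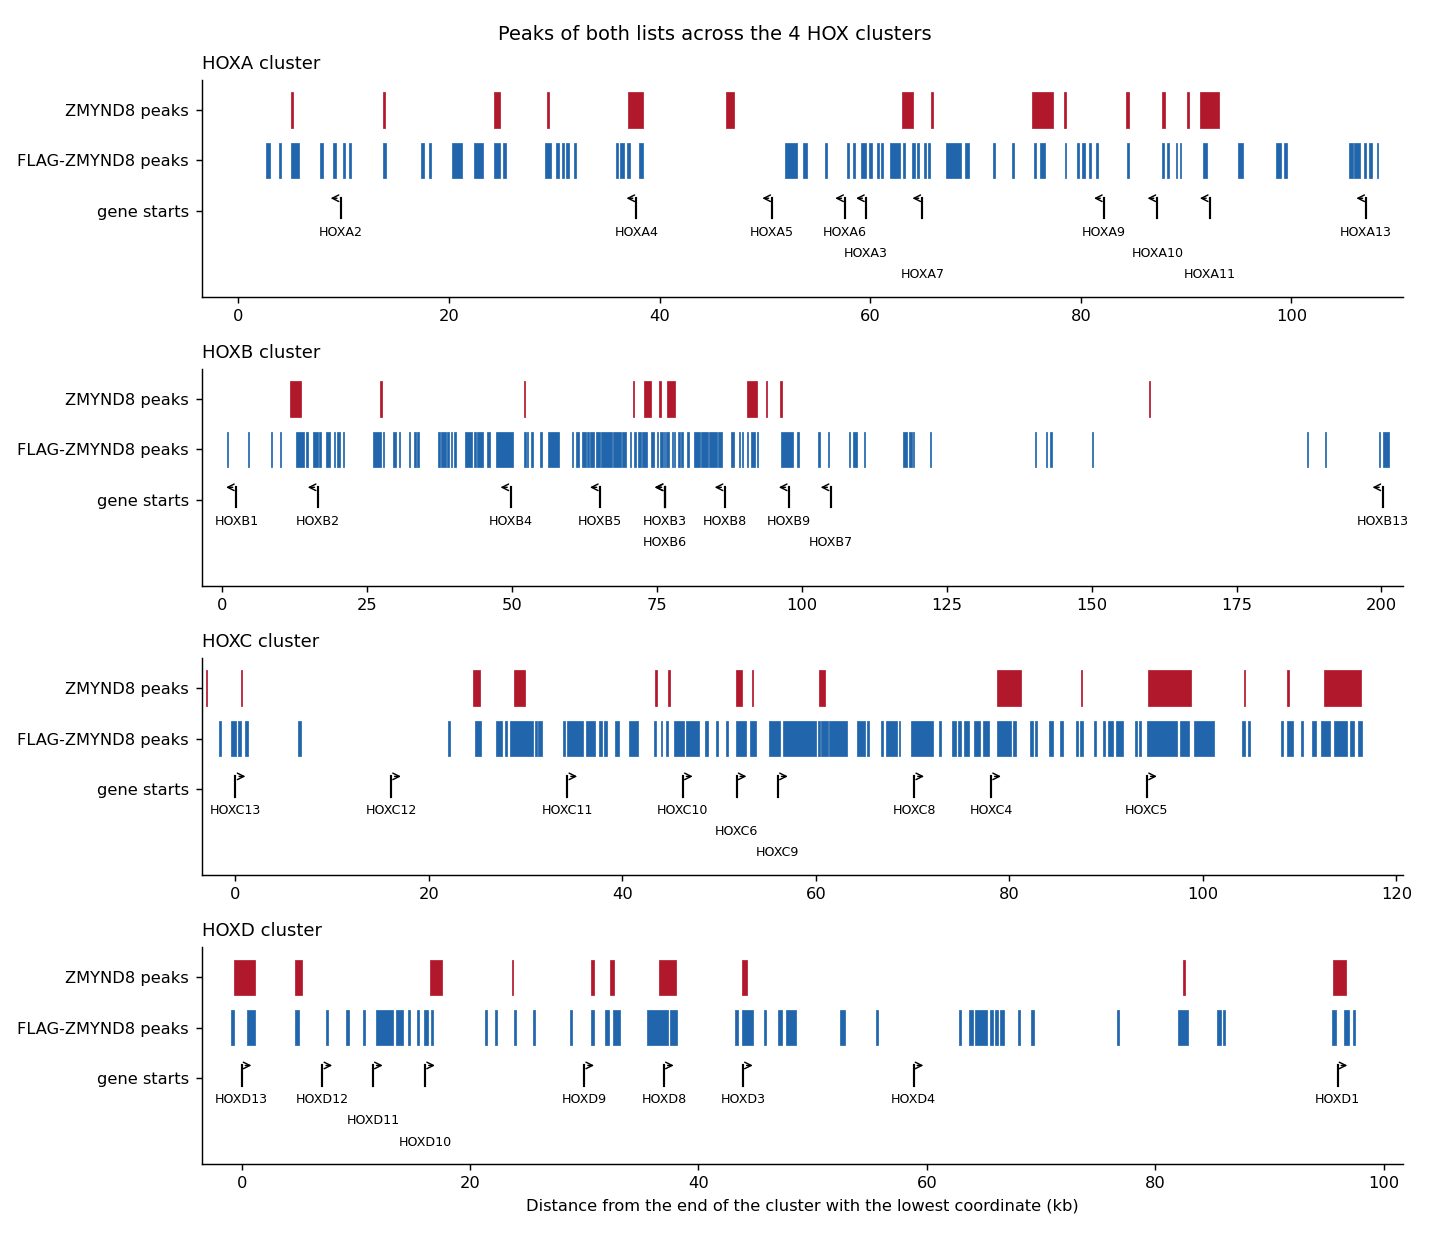
ZMYND8 peaks (red) and FLAG-ZMYND8 peaks (blue), drawn to scale along the 4 HOX clusters and the 3 kb around the outermost starts, with HOX gene starts as ticks and arrows in the direction of transcription; the horizontal axis is distance in kb from the cluster end with the lowest coordinate, and each cluster has its own scale. Wide ZMYND8 peaks stand at HOXC5 and at HOXA4, HOXA11 and HOXD13, and both rows are empty around HOXC12.

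For comparison, the genome was divided into 28420 windows of 100 kb. The median window held 0 peaks of either list, the 99th percentile was 5 ZMYND8 and 19 FLAG-ZMYND8 peaks, and 69.1% and 52.6% of windows held none. Only 0.542% of windows held at least as many ZMYND8 peaks as the sparsest HOX cluster has per 100 kb, and 0.0211% at least as many FLAG-ZMYND8 peaks. For FLAG-ZMYND8 this was 6 windows, of which 2 lay on a HOX cluster, and for ZMYND8 154 windows, of which 6 did. The windows were not fitted to the clusters, and 9 of them lay on one. Most of these 9 thus stayed below the FLAG-ZMYND8 value of the sparsest cluster, and some below the ZMYND8 value. The window with the most FLAG-ZMYND8 peaks, 67, lay on a HOX cluster, and the highest window elsewhere held 51. For ZMYND8 a window away from the HOX clusters reached 14, the highest count of any window.

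HOXC had the largest share of its bases under peaks in both lists. ZMYND8 peaks covered 12.8% of HOXC, 8.56% of HOXA, 6.99% of HOXD and 3.88% of HOXB. FLAG-ZMYND8 peaks covered 40.1% of HOXC, 22.0% of HOXB, 20.1% of HOXA and 18.2% of HOXD. The mean 100 kb window was covered to 0.170% by ZMYND8 and 0.587% by FLAG-ZMYND8 peaks. The value of the least covered HOX cluster was reached by 0.13% of windows for ZMYND8 and 0.0281% for FLAG-ZMYND8. Of the 9 windows on a HOX cluster, 6 reached it for ZMYND8 and 3 for FLAG-ZMYND8.

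Peak density was lower outside every cluster than in it, and the flank nearest to its cluster in density was on 1 side of HOXC. In the 200 kb on either side of HOXA, HOXB and HOXD, ZMYND8 peaks numbered 0.5 to 1.5 per 100 kb, and FLAG-ZMYND8 peaks 0 to 9.5. HOXC was bounded by 1.5 ZMYND8 and 8 FLAG-ZMYND8 peaks per 100 kb on the side of HOXC13. On the side of HOXC4 and HOXC5 the numbers were 6 and 33.5, both above the 99th percentile of windows.

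**Figure D4:**
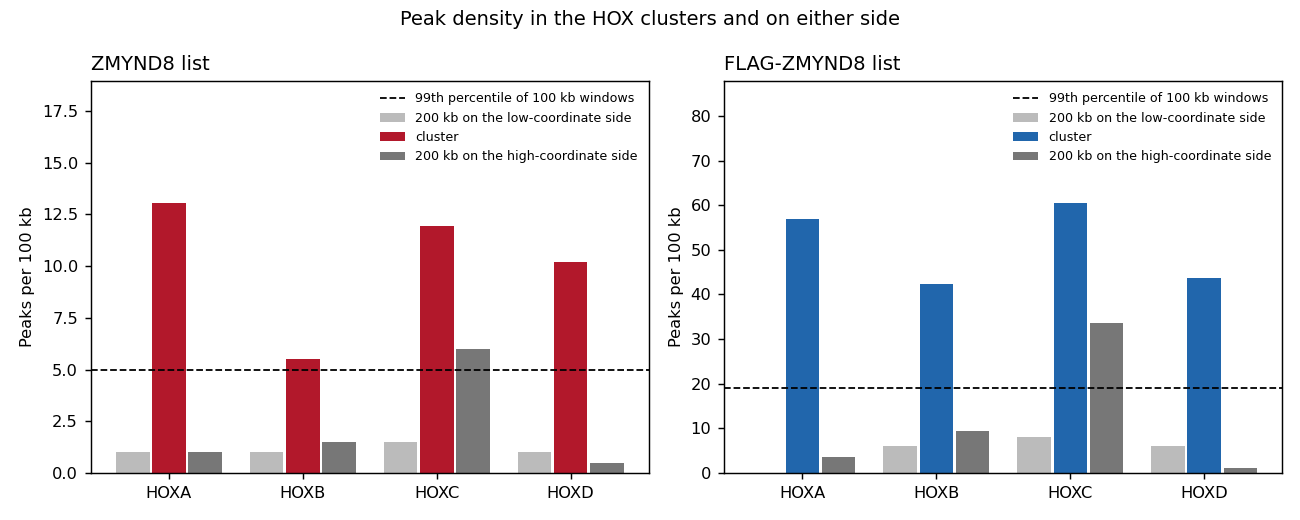
Peaks per 100 kb in each HOX cluster (coloured bars) and in the 200 kb on its low-coordinate (light grey) and high-coordinate (dark grey) side, for the ZMYND8 list (left) and the FLAG-ZMYND8 list (right); the dashed line is the 99th percentile of 100 kb windows, 5 and 19 peaks. All 4 clusters lie above the line in both lists, and of the flanks only the high-coordinate side of HOXC does, at 6 and 33.5.

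The peaks were unevenly spread within a cluster. The longest stretch of a span without a ZMYND8 peak was 15984 bp in HOXA, with the starts of HOXA3, HOXA5 and HOXA6 in it, 63417 bp in HOXB, with HOXB7 and HOXB9, 23902 bp in HOXC, with HOXC12, and 38159 bp in HOXD, with HOXD4. HOXB7 lay there by its outermost start only, and its canonical start, 22555 bp downstream, was outside the stretch. For FLAG-ZMYND8 the longest free stretch was 13433 bp in HOXA, with HOXA5, and 15177 bp in HOXC, with HOXC12, while those of 36860 bp in HOXB and 9328 bp in HOXD held no HOX start. HOXA5 and HOXC12 thus each lay in the longest free stretch of their cluster in both lists.

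Many peaks in the clusters were not at outermost HOX starts, from which the distances here are counted. Some of the farther ZMYND8 peaks lay at canonical starts. Among them were the 3842 bp peak over that of HOXC4 and a 702 bp peak within 1 kb of that of HOXC9. From the nearest outermost HOX start, 28 of the 49 ZMYND8 peaks were at most 3 kb away and 21 farther, with a median distance of 2404 bp. Of the 14 within 1 kb, 10 lay downstream and 4 upstream. Among the 260 FLAG-ZMYND8 peaks, 129 were at most 3 kb away and 131 farther, with a median of 3134.5 bp, and of the 54 within 1 kb, 31 lay downstream and 23 upstream. By annotation, 21 ZMYND8 midpoints fell in introns, 6 in coding sequence, 6 in untranslated regions, 14 in other exons and 2 between genes. Other exons held 28.6% in the clusters and 8.34% in the whole list. Nearer to the list were introns (42.9% and 45.6%), coding sequence (12.2% and 8.41%) and untranslated regions (12.2% and 13.7%). The intergenic share was 4.08% in the clusters and 23.9% in the whole list, and for FLAG-ZMYND8 6.92% and 23.0%. The spans begin and end at HOX genes by definition. The share of their bases in each class was not counted, so these shares do not describe the peaks apart from the spans.

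Peaks were wider in the HOX clusters than in the lists at large. The median ZMYND8 peak was 294 bp in the clusters and 151 bp, the minimum, in the whole list, and the median FLAG-ZMYND8 peak 297 bp against 167 bp, again the minimum. Peaks of 1000 bp or wider made up 15 of the 49 ZMYND8 peaks (30.6%), where their share of the list was 5.58%, and 29 of the 260 FLAG-ZMYND8 peaks (11.2%), where it was 1.8%. The minimum width was held by 28.6% of the ZMYND8 peaks in the clusters and 53.0% of the list, and by 21.9% and 54.7% of the FLAG-ZMYND8 peaks. What sets the minimum is not given in the sources used here.

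**Figure D5:**
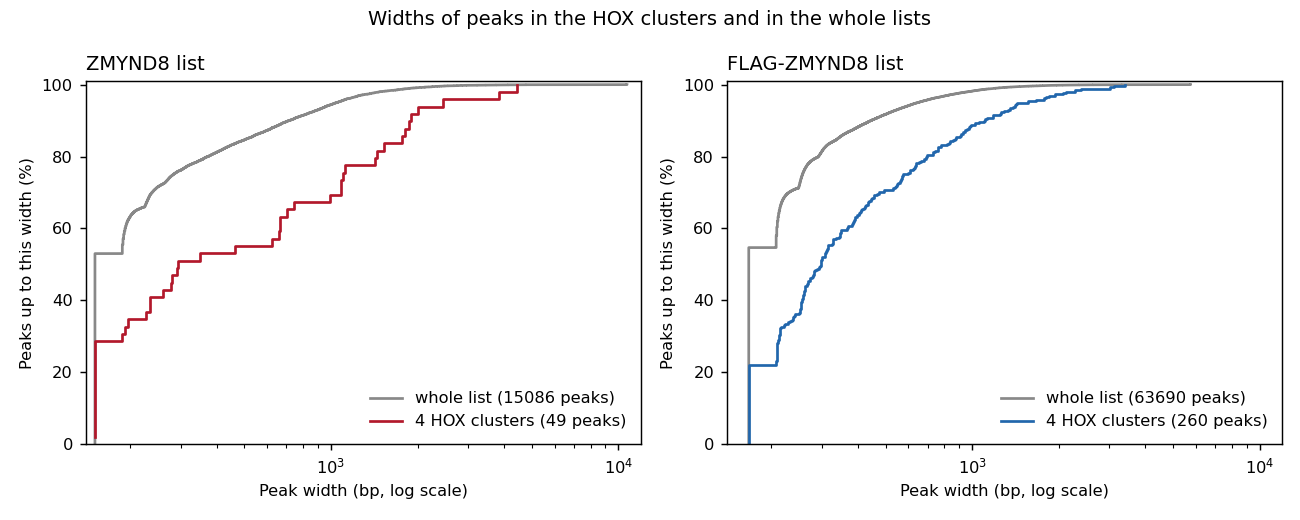
Cumulative share of peaks (%) up to a given width (bp, log scale) in the 4 HOX clusters (coloured, 49 ZMYND8 peaks on the left and 260 FLAG-ZMYND8 peaks on the right) and in the whole lists (grey, 15086 and 63690 peaks). The coloured lines run below the grey ones because peaks in the clusters are wider, with medians of 294 and 297 bp against 151 and 167 bp.

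The 15 wide ZMYND8 peaks were spread over the clusters, 3 in HOXA and 4 in each of the others. The widest, 4433 bp (chr12:54426912-54431344), began near the start of HOXC5 and ranked 7 by width in the whole ZMYND8 list, and 90% of it lay under FLAG-ZMYND8 peaks. The next, 3842 bp (chr12:54445173-54449014), ranked 14 and lay at the start of the canonical HOXC4 transcript. A 2001 bp peak in HOXA (chr7:27207973-27209973) held the start of MIR196B. FLAG-ZMYND8 peaks touched all 15, but the share of a wide peak under them ran from 15.2% to 100%, with a median of 48.6%.

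The wide FLAG-ZMYND8 peaks were placed differently, 13 in HOXC and 12 in HOXB but only 2 each in HOXA and HOXD, and 20 of the 29 did not touch a ZMYND8 peak. The widest, 3398 bp (chr12:54389191-54392588), lay downstream of the outermost HOXC9 start, ranked 10 in its list and was free of ZMYND8. A 3122 bp peak at HOXC5 ranked 16 and lay 98.5% under the widest ZMYND8 peak. The 3010 bp peak over HOXB4 ranked 20 and the 2284 bp peak over HOXC8 ranked 61, both without ZMYND8, and the 2075 bp peak over HOXB9 ranked 88 and lay under ZMYND8 for only 2.17% of its length.

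Most ZMYND8 peaks in the clusters touched a FLAG-ZMYND8 peak, but few matched one in extent. Of the 49, 43 overlapped a FLAG-ZMYND8 peak by at least 1 bp (87.8%, Wilson interval 75.8 to 94.3%), against 40.0% of the whole ZMYND8 list. In the other direction, 58 of 260 peaks in the FLAG-ZMYND8 list were shared (22.3%, 17.7 to 27.8%), against 10.7% of the whole list. When the overlap had to reach 50% of both peaks, 14 of the 49 ZMYND8 peaks were shared. By cluster the shared ZMYND8 peaks numbered 11 of 14 in HOXA, 9 of 11 in HOXB, 14 of 14 in HOXC and 9 of 10 in HOXD, and with so few peaks the intervals of the 4 clusters overlap.

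The density of FLAG-ZMYND8 peaks and the widths stand beside this share. FLAG-ZMYND8 peaks covered 130307 of the 522711 bp of the 4 spans, or 24.9%, and ZMYND8 peaks 38816 bp, or 7.43%. The peaks of both lists had 23258 bp in common, which is 59.9% of the ZMYND8 bases and 17.8% of the FLAG-ZMYND8 bases. Among minimum-width ZMYND8 peaks, 10 of 14 were shared in the clusters (71.4%), against 21.3% in the list, and among those of intermediate width 18 of 20 (90%), against 57.0%. All 15 wide ones were shared, where the list had 91.6%. Wide FLAG-ZMYND8 peaks went the other way, with 9 of 29 shared in the clusters (31.0%), against 47.9% in the list.

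The sequence under the peaks was compared in the central 151 bp of each. ZMYND8 peaks in the clusters had a median GC content of 62.9%, 7 CG dinucleotides and an observed-to-expected ratio of 0.51, close to the 60.9%, 7 and 0.53 of the whole list. FLAG-ZMYND8 peaks in the clusters had 59.3%, 6 and 0.51, against 58.3%, 5 and 0.39 in the whole list. Tiles of 151 bp from the clusters that were free of peaks had 47.0%, 2 and 0.27, and tiles under a peak 57.0%, 5 and 0.48. Peaks in the clusters thus lay on the more GC-rich part of the cluster DNA. HOXD had the highest ratio for ZMYND8, 0.81 over 10 peaks, and HOXC the lowest for FLAG-ZMYND8, 0.36 over 71 peaks.

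The same windows were searched on both strands for letters of known binding motifs, as a description of sequence only. TGATTNAT, bound by PBX with HOX proteins, was in 1 of 49 ZMYND8 peaks (2.04%, whole list 0.550%) and in 2 of 260 FLAG-ZMYND8 peaks (0.769%, whole list 0.410%), and 1.91% of the cluster tiles free of peaks and 1.24% of those under a peak held it. TTTATNG, bound by posterior HOX proteins, was in 2 ZMYND8 peaks (4.08%, whole list 1.97%) and in 11 FLAG-ZMYND8 peaks (4.23%, whole list 1.72%), and in 9.59% of the free tiles and 7.62% of the tiles under a peak. GAGAG was in 16 ZMYND8 peaks (32.7%, whole list 38.8%) and in 127 FLAG-ZMYND8 peaks (48.8%, whole list 35.8%), and in 38.9% of the free tiles and 48.9% of the tiles under a peak. The CTCF core motif was in 0 peaks of either list in the clusters, but also in only 0.0398% of all ZMYND8 and 0.00628% of all FLAG-ZMYND8 peaks, so that its count here has no bearing on the clusters.

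The non-coding genes of the clusters, antisense RNAs and microRNAs among them, had peaks about as often as the HOX genes, which they neighbour or overlap. Of 39 such genes that overlap a span, 23 had a ZMYND8 peak within 3 kb (59.0%) and 35 a FLAG-ZMYND8 peak (89.7%). The starts of HOXA-AS3, HOXA10-AS, HOXA11-AS and HAGLR lay under ZMYND8 peaks of 1441, 2001, 1813 and 1080 bp. HOTAIR, which is transcribed from HOXC, and HOTTIP, at the HOXA13 end of HOXA, had 5 FLAG-ZMYND8 peaks each within 3 kb and no ZMYND8 peak, and the nearest ZMYND8 midpoint lay 6787 bp downstream of HOTAIR and 13329 bp upstream of HOTTIP.

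The starts of MIR196B and MIR615 lay under peaks of both lists, a 2001 bp and a 4433 bp ZMYND8 peak and a 475 bp and a 3122 bp FLAG-ZMYND8 peak. The mature microRNAs are shown because miR-196 is known to target transcripts of the HOX genes among which it is encoded. The sequences are from RefSeq, 5′ to 3′, with the seed, bases 2 to 8, in capitals.
hsa-miR-196b-5p: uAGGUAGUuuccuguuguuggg
hsa-miR-196a-5p: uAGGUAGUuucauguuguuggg
hsa-miR-615-3p: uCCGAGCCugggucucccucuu

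miR-196a and miR-196b share the seed AGGUAGU, and miR-615-3p has another. The genes for miR-196a were not marked alike. MIR196A2, in HOXC, had 2 ZMYND8 midpoints within 1 kb, the nearest 516 bp downstream, while MIR196A1, in HOXB, had none within 3 kb and its nearest lay 7627 bp downstream.

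Genes that work with or upon HOX genes were marked at varying rates, and the groups are small. Within 3 kb, the shares to read them against are the 34.1% of all protein-coding genes with a ZMYND8 peak and the 58.1% with a FLAG-ZMYND8 peak. Of 9 genes for HOX partners of the TALE class, 4 had a ZMYND8 peak within 3 kb and 7 a FLAG-ZMYND8 peak. Each of the 4 had its ZMYND8 peak within 1 kb, a 1731 bp peak over the start of PBX3, a 1598 bp peak over that of PKNOX1, a 361 bp peak at MEIS2 and a 279 bp peak at PBX4. Of 16 Polycomb genes, 11 had a ZMYND8 peak within 3 kb (68.8%) and 13 a FLAG-ZMYND8 peak (81.3%). The ZMYND8 share of the Polycomb genes was above that of the HOX genes in both windows, at 62.5% against 35.9% within 1 kb, and their FLAG-ZMYND8 share was below it. The widest of their ZMYND8 peaks within 1 kb were a 1064 bp peak over the start of EZH1 and a 1010 bp peak over that of RNF2. EZH2 and EED had no peak of either list within 3 kb of the start.

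Other Polycomb genes with a ZMYND8 midpoint within 1 kb included BMI1 (416 bp wide), PHC3 (386 bp), RING1 (250 bp), and PHC2, SUZ12, PCGF2 and CBX7 (151 bp each). The 8 Trithorax and related genes included CTCF, which had FLAG-ZMYND8 peaks but no ZMYND8 peak within 3 kb. Of the 8, 4 had a ZMYND8 peak within 3 kb (50%) and 7 a FLAG-ZMYND8 peak (87.5%). ZMYND8 midpoints lay within 1 kb at WDR5 (487 bp), MEN1 and KMT2B (151 bp each). The ParaHox genes, the sister group of the HOX clusters, had ZMYND8 peaks at 2 of 6 (33.3%), PDX1 (339 bp, over the start) and GSX1 (151 bp), and FLAG-ZMYND8 peaks at 3 of 6, both near the shares of all protein-coding genes. EVX2, beside HOXD13, had a minimum-width ZMYND8 peak 621 bp downstream, and EVX1, beside HOXA13, had no peak of either list within 3 kb.

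Other families were compared for scale only. Of 86 FOX, SOX, PAX and TBX genes, developmental transcription factors that mostly stand alone, 37.2% had a ZMYND8 and 64.0% a FLAG-ZMYND8 peak within 3 kb, near the shares of all protein-coding genes. The clustered protocadherins, 53 cell adhesion genes in tandem arrays, had 3.77% and 5.66%. The protocadherin shares were thus far below those of all protein-coding genes, and the HOX shares above them.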

How the data were processed

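The series holds ChIP-seq of ZMYND8, FLAG-ZMYND8, H3K14ac and H3K27ac with inputs. A few genes and sequences are not reported here and enter only the counts. Only the 2 lists of ZMYND8 and FLAG-ZMYND8 peaks were analysed here. According to the methods and the processing notes, BWA was used by the authors to map reads to hg19, and HOMER for profiles. Peak calling settings and the combining of replicates are not given in the sources used here. The deposited columns hold peak positions in hg19, the same build as GRCh37, and a score, which is 1 in every row and was not used.

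Midpoints and edges were compared with gene starts of GENCODE release 44 on GRCh37, in windows of 500 bp to 5 kb. Clusters ran from the first to the last HOX gene. Genome windows of 100 kb with over 50% unknown bases were left out. Peaks of 1000 bp or wider were called wide, and an overlap of 1 bp or more shared. Named were the HOX genes with a ZMYND8 peak within 3 kb, those with the 5 widest peaks of each list, those with no peak, and related genes with a ZMYND8 peak within 1 kb. A few others were named after their values were seen. Members, gene lists and alternatives were chosen with earlier results of these data known. Peak placement and overlap counts were tested on simulated lists. Python 3.11.15, numpy 2.4.6, pandas 2.3.3, scipy 1.17.1 and matplotlib 3.10.9 were used.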

Additional observations from a re-analysis of the deposited data

How the results depend on the processing

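The number of HOX genes with a peak depended most on the window. ZMYND8 peaks lay at 7 HOX genes within 500 bp and 14 within 1 kb, in place of 23, FLAG-ZMYND8 peaks at 23 within 500 bp in place of 37, and both at 5 within 500 bp and 14 within 1 kb in place of 23. With a reciprocal overlap of 50%, only 14 ZMYND8 and 14 FLAG-ZMYND8 peaks in the clusters were shared, in place of 43 and 58. The other 24 of 31 alternative values stayed within 1.5 times of those reported. Among them were 20 ZMYND8 genes with minimum-width peaks left out, 27 with any transcript start and 21 with canonical starts. Canonical starts were the alternative added after the data were seen. Shares of all protein-coding genes are given only for 3 kb, 1 kb, the start base and canonical starts. At the other settings the HOX counts therefore cannot be set against all genes. Within 1 kb the ZMYND8 share of HOX genes, 35.9%, was close to the 28.5% of all protein-coding genes. No paired analysis was possible because neither list keeps its replicates apart, and leaving out a replicate could not be tried either. The lists give no counts, so a place without a peak cannot be told from one under the calling threshold at an unknown depth.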

Other observations

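The 200 kb beyond the HOXC4 and HOXC5 end of the HOXC cluster held 12 ZMYND8 and 67 FLAG-ZMYND8 peaks, which covered 3.86% and 12.5% of it. On the side of HOXC13 the numbers were 3 and 16 peaks, covering 0.883% and 2.71%. Among the 7 other flanks of the clusters, that of HOXC13 included, ZMYND8 peaks numbered 1 to 3 and FLAG-ZMYND8 peaks 0 to 19.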
